A study of Mus musculus with 16 samples.

Results

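The genes of 9 alternative immune checkpoint proteins were followed in the RNA of 16 mouse mammary tumours: Lag3, Havcr2 (the receptor TIM-3), its ligand gene Lgals9, Tigit, Cd226, Cd96, Pvr, Nectin2 and Vsir (VISTA). They were taken by symbol from a list of receptors and ligands beyond the PD-1 axis. The rule used no measured value, though earlier results of these data were known when it was set. All 9 of 9 were found among the 47311 annotated genes, and all 9 were among the 16154 genes with enough reads to be tested. In the anti-PD-1 group, 8 mice received a blocking antibody to PD-1, and in the IgG2a group 8 mice received the isotype control antibody, 200 ug every 3 days into the peritoneum from day 3 after the cells until day 21. Both groups were female C57BL/6J mice kept on a diet with 60% of its energy as fat from 8 to 26 weeks of age. Both received 250000 E0771-luciferase cells in 25% matrigel in mammary gland 4, and E0771 is a mammary cancer line of the C57BL/6 strain. All tumours thus descended from 1 cell line that carries a luciferase reporter, and no tumour-free or lean animals were part of the comparison. RNA was taken from whole tumours, so fewer cells of a type and less RNA per cell cannot be told apart in any value given here.

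These proteins work as pairs of receptors and ligands on T cells, natural killer cells, myeloid cells and tumour cells. LAG-3 restrains T cells and binds MHC class II molecules. TIM-3 is carried by exhausted T cells and by macrophages and dendritic cells, and galectin-9, the product of Lgals9, is one of its described ligands. TIGIT competes with the activating receptor CD226 for the ligands PVR (CD155) and nectin-2 (CD112), and CD96 competes with CD226 for PVR. Many epithelial and myeloid cells display these ligands. VISTA is found mostly on myeloid cells, including neutrophils, and acts on T cells as a ligand or a receptor.

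Depth ran from 59036535 to 82591064 estimated reads in a tumour. In 3 tumours the RNA stood apart from the rest. Only 38993 transcripts were detected in anti-PD-1 replicate 6, the lowest of the 16. Summed skeletal muscle markers reached 31658 CPM (counts scaled to the size of the library) in IgG2a replicate 3, which is 3584 times the median tumour. In IgG2a replicate 7, summed erythroid markers reached 25692 CPM, 255.2 times the median, and adipocyte markers 13561 CPM, 88.2 times. Endothelial, epithelial, fibroblast and macrophage markers lay at 12.0, 7.58, 5.14 and 3.69 times their medians in that tumour. Results that rest on these tumours are given with and without them. Of the epithelial genes, Krt8 lay between 33.4 and 49.4 TPM (a scale of abundance that divides reads by transcript length) in anti-PD-1 tumours and between 33.8 and 75.9 TPM in IgG2a tumours, while Epcam had medians of 1.40 TPM and 0.858 TPM in these groups. Krt8 was thus present in every tumour, and Epcam was low in most. The other epithelial markers, Krt18, Krt19, Krt7, Cdh1, Krt14 and Krt5, were low too. Their medians ran from 0.110 to 2.47 TPM in anti-PD-1 tumours and from 0.264 to 1.52 TPM in IgG2a tumours. The epithelial score used further on is a mean over all of these genes, most of them low.

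Promoter sequences of Havcr2, Cd96 and Vsir are shown because the levels of these genes moved together in the 13 tumours that remained after the 3 were left out, as given further on. Each run is the 250 bases upstream of the start in RefSeq's table for GRCm38.p6, written 5′ to 3′ on the gene's own strand, and capitals mark matches to the motifs named below. Of the 9 genes, 6 had an entry in that table.
Havcr2, chr11:46454681-46454930, plus strand: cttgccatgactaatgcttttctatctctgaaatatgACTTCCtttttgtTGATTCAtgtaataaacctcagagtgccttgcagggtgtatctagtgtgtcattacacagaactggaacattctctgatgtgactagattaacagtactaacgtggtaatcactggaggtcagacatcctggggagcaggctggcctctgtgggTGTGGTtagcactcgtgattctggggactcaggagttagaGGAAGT
Cd96, chr16:46120249-46120498, minus strand: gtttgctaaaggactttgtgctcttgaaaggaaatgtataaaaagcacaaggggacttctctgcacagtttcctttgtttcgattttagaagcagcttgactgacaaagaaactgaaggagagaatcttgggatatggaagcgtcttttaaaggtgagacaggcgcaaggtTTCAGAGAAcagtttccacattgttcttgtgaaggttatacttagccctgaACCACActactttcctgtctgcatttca
Vsir, chr10:60346601-60346850, plus strand: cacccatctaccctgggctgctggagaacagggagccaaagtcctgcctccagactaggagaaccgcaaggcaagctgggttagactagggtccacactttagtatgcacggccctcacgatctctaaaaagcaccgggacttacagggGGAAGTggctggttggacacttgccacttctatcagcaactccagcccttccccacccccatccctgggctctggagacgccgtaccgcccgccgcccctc
The motifs searched on both strands were TGTGGT (Runx factors), GTGTGA (T-box factors), TGANTCA (AP-1), TTCNNNGAA (the gamma-activated site of STAT factors) and GGAAGT (Ets factors). Havcr2 held a Runx match that begins 46 bases before the start, an AP-1 match at 200 bases and 2 Ets matches. Cd96 held 1 Runx match, 28 bases before the start on the opposite strand, and 1 gamma-activated site match at 79 bases. The Vsir window held 1 Ets match, 101 bases before the start, and no match to the other 4 motifs. Over all 32841 windows of this length, 14.0% held the Runx motif, 12.3% the T-box motif, 6.75% the AP-1 motif, 7.02% the gamma-activated site and 19.7% the Ets motif. Of the other genes with a window, Tigit held 1 Runx match, Lgals9 1 Ets match, and Nectin2 1 T-box and 1 Ets match. These matches are letters in a window and no binding was measured.

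The 9 genes spanned more than 2 orders of magnitude in TPM, with ligands high and lymphocyte receptors low. Averaged over 16 tumours, Lgals9 led at 103.1 TPM, followed by Vsir at 63.2, Pvr at 52.2 and Nectin2 at 16.2 TPM. Havcr2 averaged 7.06, Tigit 5.68 and Lag3 4.37 TPM. At the bottom, Cd96 averaged 0.521 TPM and Cd226 0.452 TPM, with 12 to 165 estimated reads of Cd226 per tumour. Neighbours in this order were often not separate: Vsir exceeded Pvr in 8 of 16 tumours, Havcr2 exceeded Tigit in 11, Tigit exceeded Lag3 in 12 and Cd96 exceeded Cd226 in 12. The step from Lag3 down to Cd96 held in 16 of 16 tumours, and the ranges of these genes did not touch. When only protein-coding transcripts were summed, an alternative chosen after the data were seen, Vsir averaged 38.8 TPM and Pvr 44.0 TPM, and Pvr exceeded Vsir in 12 of 16 tumours.

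**Figure D1:**
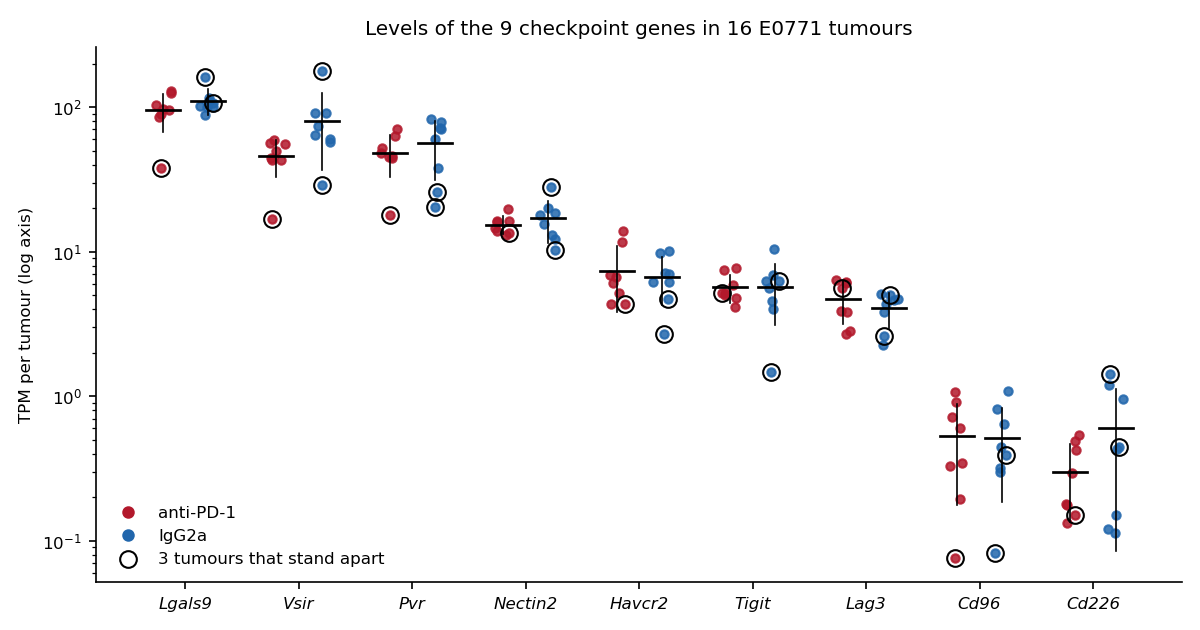
TPM of the 9 genes on a log axis, 1 point per tumour, anti-PD-1 left of IgG2a within each gene, with bars at the mean and lines of 1 SD (n = 8 each). Rings mark the 3 tumours that stand apart, among them the anti-PD-1 tumour at 37.8 TPM of Lgals9 and the IgG2a tumour at 176.7 TPM of Vsir, and the point clouds of both groups overlap for every gene.

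Among the inhibitory receptors, Lag3 (ENSMUSG00000030124, chromosome 6, 124904361 to 124911705, minus strand, GRCm38) had a lowest, median and highest value of 2.69, 4.76 and 6.35 TPM in anti-PD-1 tumours, against 2.25, 4.46 and 5.09 TPM in IgG2a tumours. The groups overlapped, with 4 of 8 anti-PD-1 tumours above the IgG2a median. Its log2 fold change, anti-PD-1 over IgG2a, was 0.45 ± 0.33 (SE), with a 95% interval from -0.24 to 1.14 in edgeR's quasi-likelihood fit on counts. With anti-PD-1 replicate 6 left out it was 0.23, with all 3 tumours that stand apart left out 0.19, and in limma-voom with quality weights 0.08. Havcr2 (chromosome 11, 46454935 to 46481255, plus strand) had 4.32, 6.38 and 14.0 TPM as lowest, median and highest in anti-PD-1 tumours, against 2.68, 6.57 and 10.2 TPM in IgG2a tumours. Both high values of the anti-PD-1 group came from replicates 1 and 5, at 14.0 and 11.6 TPM, while the other 6 treated tumours lay inside the IgG2a range. The Havcr2 log2 fold change was 0.26 ± 0.26 (SE), but 0.05 with anti-PD-1 replicate 1 left out, 0.11 without the 3 tumours and -0.10 with quality weights. Tigit (chromosome 16, 43648867 to 43664146, minus strand) had 4.17, 5.19 and 7.67 TPM in anti-PD-1 tumours, against 1.47, 5.95 and 10.4 TPM in IgG2a tumours. The IgG2a group held both the lowest tumour, replicate 7, and the highest, replicate 8, and the log2 fold change was 0.14 ± 0.29 (SE). Its direction turned without IgG2a replicate 7, at -0.0046, and without the 3 tumours, at -0.04.

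The other receptors of the nectin system were near the limit of these libraries. Cd226, whose product activates T and natural killer cells, lies on chromosome 18 (89176967 to 89272229, plus strand). It had 0.133, 0.238 and 0.543 TPM as lowest, median and highest in anti-PD-1 tumours, against 0.113, 0.438 and 1.44 TPM in IgG2a tumours. The 3 IgG2a replicates 2, 7 and 8, at 0.956, 1.44 and 1.19 TPM, exceeded every anti-PD-1 tumour, while the 3 IgG2a replicates 4, 5 and 6 were as low as the lowest treated ones. The log2 fold change of Cd226 was -0.77 ± 0.52 (SE), with an interval from -1.86 to 0.33, and -0.25 ± 0.52 (SE) without the 3 tumours. It was -0.36 without IgG2a replicate 7 alone, and with quality weights the direction turned, at 0.21. Cd96 (chromosome 16, 46035657 to 46120251, minus strand), a receptor of T and natural killer cells, had 0.0764, 0.471 and 1.07 TPM in anti-PD-1 tumours, against 0.0825, 0.417 and 1.09 TPM in IgG2a tumours. The group ranges nearly coincide, and the lowest value of each was from a tumour that stands apart, anti-PD-1 replicate 6 and IgG2a replicate 7. The Cd96 log2 fold change was 0.11 ± 0.49 (SE), and ran from -0.10 without anti-PD-1 replicate 5 to 0.36 without IgG2a replicate 2.

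Of the ligands, Lgals9 (chromosome 11, 78962974 to 78984946, minus strand) had 37.8, 96.6 and 129.5 TPM as lowest, median and highest in anti-PD-1 tumours, against 88.1, 105.0 and 162.3 TPM in IgG2a tumours. The lowest was anti-PD-1 replicate 6 and the highest IgG2a replicate 7, and between them the groups overlap. Its log2 fold change was -0.15 ± 0.15 (SE), and turned to 0.09 ± 0.10 (SE) without the 3 tumours and to 0.06 with quality weights. Pvr (chromosome 7, 19903578 to 19921160, minus strand) had 17.9, 47.0 and 70.4 TPM in anti-PD-1 tumours, against 20.4, 65.2 and 83.3 TPM in IgG2a tumours. The 3 lowest of the 16 were the 3 tumours that stand apart, at 17.9 TPM in anti-PD-1 replicate 6 and at 25.9 and 20.4 TPM in IgG2a replicates 3 and 7. The log2 fold change of Pvr was -0.01 ± 0.23 (SE), and -0.17 ± 0.14 (SE) without these tumours. Nectin2 (chromosome 7, 19716644 to 19750483, minus strand) had 13.04, 15.3 and 19.8 TPM in anti-PD-1 tumours, against 10.2, 16.8 and 27.8 TPM in IgG2a tumours, a log2 fold change of -0.02 ± 0.17 (SE). The treated tumours lay within the IgG2a range, which was widened upwards by IgG2a replicate 7. Nectin2 shares 135 exonic bases with the antisense gene Gm20512, which averaged 0.673 TPM, and the library kit does not mark strand, so reads from this stretch cannot be told apart.

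Vsir (chromosome 10, 60346851 to 60372684, plus strand) lies inside Cdh23 on the other strand, with no exonic base shared. It had 16.7, 47.0 and 58.9 TPM as lowest, median and highest in anti-PD-1 tumours, against 29.1, 69.0 and 176.7 TPM in IgG2a tumours. No anti-PD-1 tumour exceeded the IgG2a median in TPM, while in CPM 3 of 8 did, from medians of 93.2 CPM in anti-PD-1 tumours and 101.7 CPM in IgG2a tumours. The log2 fold change from counts was -0.37 ± 0.25 (SE), with an interval from -0.90 to 0.15 and an adjusted p of 0.473 by edgeR. Without the 3 tumours it was -0.10 ± 0.11 (SE), and without IgG2a replicate 7 alone it was -0.02. On the log2(TPM + 1) scale limma-trend gave -0.71 ± 0.30 (SE), with an unadjusted p of 0.0320 and an adjusted p of 0.694 over all genes.

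By edgeR's quasi-likelihood test with Benjamini-Hochberg adjustment, 0 of the 9 genes were called at an adjusted p of 0.05, where the background over all 16154 genes was 0 called, or 0.0%. At an unadjusted p of 0.05 the count was again 0 of 9, against 1836 genes or 11.4% of all tested. DESeq2 called 4 genes of 27933, none of them among these 9, whose adjusted p by DESeq2 was at least 0.799. Of the 9 estimates 4 were above 0 and 5 below, and the median log2 fold change over all genes was -0.05. The intervals still hold sizeable changes: they reach 1.14 for Lag3, 1.15 for Cd96 and -1.86 for Cd226, but no further than -0.48 and 0.17 for Lgals9 and -0.37 and 0.34 for Nectin2.

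**Figure D2:**
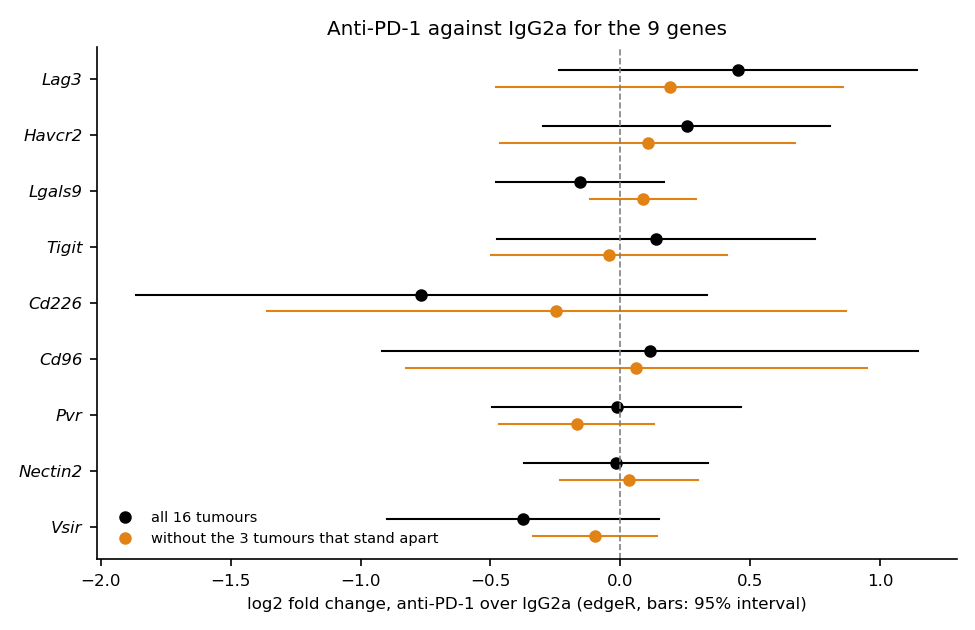
Log2 fold change of each gene, anti-PD-1 over IgG2a, from edgeR with 95% intervals, over all 16 tumours in black and without the 3 tumours that stand apart in orange. Every interval contains 0, the widest being that of Cd226, and the estimates of Lag3, Cd226 and Vsir lie nearer 0 without the 3 tumours, at 0.19, -0.25 and -0.10.

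Balances between genes were compared as a log2 ratio of CPM in each tumour. The ratios set receptors that share ligands, ligands that share receptors, or a receptor and a marker gene of cells that can carry it. No ratio set a receptor against its ligand. Each had a two-sided exact permutation test over every assignment of tumours to groups, with adjustment over 8 ratios. TIGIT to CD226, inhibitor over activator, averaged 2.77 ± 0.60 in anti-PD-1 tumours and 2.15 ± 1.72 in IgG2a tumours (log2 ratio, SD, n = 8 each), a difference of 0.63 ± 0.65 (SE, exact p = 0.392, adjusted p = 0.549). In IgG2a replicate 7 Cd226 exceeded Tigit, with a log2 ratio of -1.46, whereas all 8 treated tumours lay between 1.90 and 3.47. Without that tumour the difference was 0.11, and without the 3 tumours it turned to -0.06. Lag3 per Cd3e, a gene of the T cell receptor complex, averaged 1.28 ± 0.97 in anti-PD-1 tumours and 0.74 ± 0.27 in IgG2a tumours, a difference of 0.54 ± 0.36 (SE, exact p = 0.0967, adjusted p = 0.549), the smallest p of the 8. The treated mean was raised by anti-PD-1 replicate 6, at 3.56, against 0.46 to 1.44 in the other 7, and the difference was 0.21 without it. Pvr over Nectin2 averaged 1.79 ± 0.41 in anti-PD-1 tumours and 1.75 ± 0.87 in IgG2a tumours, a difference of 0.05 ± 0.34 (SE, exact p = 0.916) that turned to -0.19 without the 3 tumours. None of the 8 ratios passed the threshold.

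Across the 16 tumours the genes did not form pairs that passed both correlation tests. Pearson's r and Spearman's rho of log2 CPM were computed for all 36 pairs with 100000 permutations each, adjustment over the 36 and the requirement that both pass. No pair did. Lag3 and Havcr2 came near, with r = 0.58 (adjusted permutation p = 0.0663) and rho = 0.72 (adjusted permutation p = 0.0571), as did Lag3 and Tigit, with r = 0.61 and rho = 0.66 at the same adjusted values. Within groups, r of Lag3 and Havcr2 was 0.69 in anti-PD-1 tumours and 0.34 in IgG2a tumours (n = 8 each). It was 0.67 over the 6 animals with the lower numbers in the labels and 0.68 over the 10 with the higher numbers. Leaving out the 2 tumours farthest from the median of Lag3 gave r = 0.70. Other pairs ran in opposite directions: over all 16 tumours rho was -0.68 for Havcr2 and its ligand gene Lgals9, and -0.63 for Lag3 and Lgals9. For Havcr2 and Lgals9 rho was -0.64 in anti-PD-1 tumours and -0.71 in IgG2a tumours, where r was -0.28 and -0.67.

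Without the 3 tumours that stand apart, 7 of the 36 pairs passed, all of them positive (n = 13). Havcr2 and Vsir had r = 0.87 and Lag3 and Havcr2 r = 0.86, each with an adjusted permutation p of 0.00216. Lag3 was also correlated with Cd96 (r = 0.85) and Vsir (r = 0.82). Havcr2 followed Cd96 (r = 0.80), and Cd96 followed Cd226 (r = 0.78) and Vsir (r = 0.77). The genes linked were thus Lag3, Havcr2, Cd96, Vsir and Cd226, all receptors of leukocytes, while Tigit, Lgals9, Pvr and Nectin2 were in no passing pair. Leaving out 1 tumour at a time gave 0 passing pairs except for 3 without anti-PD-1 replicate 6, 2 without IgG2a replicate 3 and 2 without IgG2a replicate 7. Over all 16 tumours Havcr2 and Vsir had r = 0.88 in the anti-PD-1 group but r = -0.06 in the IgG2a group, where IgG2a replicate 7 was high for Vsir and low for Havcr2.

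**Figure D3:**
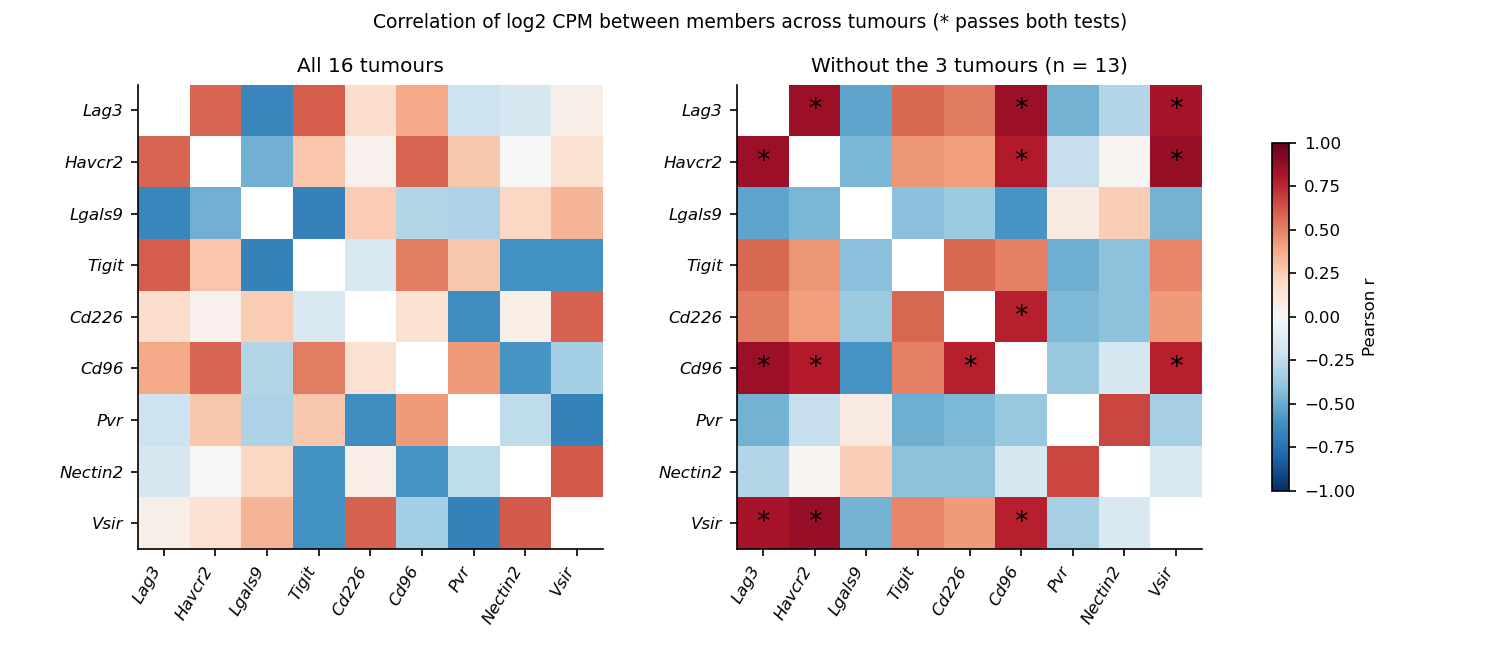
Pearson's r of log2 CPM for each pair of genes, over all 16 tumours at left and without the 3 tumours that stand apart at right, with stars on pairs that pass both tests. No star stands at left and 7 pairs carry one at right, in the block of Lag3, Havcr2, Cd96, Cd226 and Vsir.

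The genes were next set against scores of 12 marker lists, each the mean log2 CPM of its genes, which gave 108 relations. Of these 12 passed both tests after adjustment over the 108, and 15 on residuals from the group means. On log2(TPM + 1) only 4 passed: Lag3 and Cd96 with the T cell score, and Cd226 with the macrophage and adipocyte scores. Lag3 followed the T cell score with r = 0.80 (adjusted permutation p = 0.00475) and rho = 0.85. The relation held in both groups, with r = 0.72 in anti-PD-1 tumours and 0.97 in IgG2a tumours, in both ranges of animal numbers (0.81 and 0.79) and without the 2 farthest tumours (0.75). Cd96 followed the same score with r = 0.70 (adjusted permutation p = 0.0230) and rho = 0.79, at 0.61 in anti-PD-1 tumours and 0.79 in IgG2a tumours. The T cell markers themselves summed to 26.1 to 104.5 CPM in anti-PD-1 tumours and 21.2 to 64.8 CPM in IgG2a tumours, and their scores differed by 0.14 between groups (exact permutation p = 0.683).

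Cd226 moved with other cells' genes. Its relation was with the macrophage score (r = 0.81, rho = 0.73, adjusted permutation p = 0.00270 for r), the adipocyte score (r = 0.78) and the epithelial score (r = 0.70), while that with the T cell score did not pass. All 3 were weaker in anti-PD-1 tumours, at 0.67, 0.45 and 0.49, than in IgG2a tumours, at 0.86, 0.85 and 0.85, a difference that was not tested. Both Cd226 and these scores were highest in IgG2a replicate 7, and none of the 3 relations was among the 11 that passed without the 3 tumours. Vsir followed the epithelial score (r = 0.73), which is also highest in IgG2a replicate 7, and without the 2 farthest tumours r was 0.39.

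Pvr ran against the scores of 5 tissues. Its r was -0.85 with adipocyte markers, -0.82 with fibroblast markers, -0.81 with epithelial markers, -0.81 with B and plasma cell markers and -0.78 with macrophage markers. For adipocyte markers, r was -0.45 in anti-PD-1 tumours and -0.91 in IgG2a tumours, -0.84 and -0.87 in the lower and higher animal numbers, and -0.65 without the 2 farthest tumours. No Pvr relation was among those passing without the 3 tumours. Nectin2, the other ligand of TIGIT, instead followed the neutrophil score (r = 0.66, adjusted permutation p = 0.0496, rho = 0.73), with r = 0.50 in anti-PD-1 tumours and 0.79 in IgG2a tumours. Neutrophil markers summed to 39.6 to 315.5 CPM in anti-PD-1 tumours and 28.5 to 116.2 CPM in IgG2a tumours, and their part in the level of Nectin2 was not tested.

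Without the 3 tumours, 11 relations passed and all belonged to Lag3, Havcr2, Cd96 and Vsir (n = 13). Lag3 followed the T cell score with r = 0.90, the B and plasma cell score with 0.85, the macrophage score with 0.82 and the natural killer cell score with 0.72. Havcr2 followed the macrophage score with r = 0.79, with 0.71 for B and plasma cells and 0.70 for T cells. Cd96 followed macrophages with 0.89, T cells with 0.85 and natural killer cells with 0.74, and Vsir followed T cells with 0.71. These scores share libraries and scaling with the genes and with each other.

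**Figure D4:**
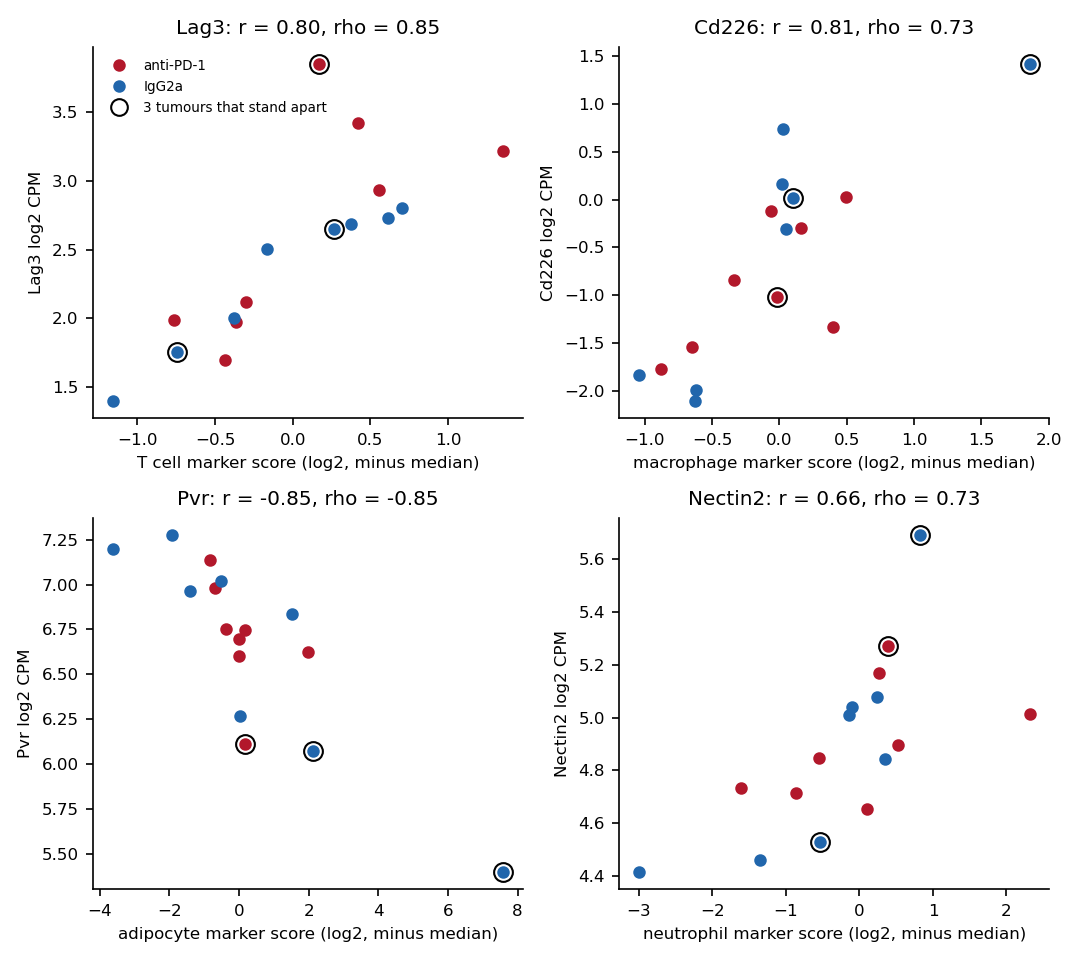
Log2 CPM of 4 genes against the marker score each followed over 16 tumours, the score being set to 0 at its median, with anti-PD-1 in red, IgG2a in blue and rings on the 3 tumours that stand apart. Lag3 rises with the T cell score (r = 0.80), but its highest value, 3.85 in anti-PD-1 replicate 6, lies at a score of 0.17. The slopes for Cd226 (r = 0.81) and Pvr (r = -0.85) have IgG2a replicate 7 at their far end. The Nectin2 slope (r = 0.66) is looser.

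The genes whose levels ranked most like each member over 16 tumours were taken from about 11095 protein-coding genes by Spearman's rho, as a description. For Lag3 they were Cd3g and Cd3d, of the T cell receptor complex, and Nkg7, of cytotoxic granules, each at rho = 0.93. For Cd96 the nearest was Cd3e (rho = 0.87), followed by Sectm1a (0.86) and Ms4a4b (0.83). Havcr2 was nearest to the myeloid receptor gene Cd300lf (0.94), then Tgfbi (0.89) and Sirpb1b (0.86). Tigit had looser neighbours in Gfm1, a mitochondrial elongation factor, Cst7, a protease inhibitor of cytotoxic and myeloid cells, and Tnfrsf4, the costimulatory receptor OX40, all at 0.78. Cd226 ranked with Frmd4b (0.88), Stard8 (0.87) and Scamp5 (0.86), none of them on the T cell marker list.

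Among the ligands, Pvr had the closest neighbours of all: Map4k5, a kinase, at rho = 0.97, Sh3bgrl2 at 0.97 and Casc3, of the exon junction complex, at 0.97. Vsir ranked with Rab8b, a small GTPase of vesicle traffic (0.94), Alas1, the first enzyme of haem synthesis (0.92), and Rassf2 (0.90). For Vsir, rho was 0.87 with the pan-leukocyte gene Ptprc, place 13 of 11094. It was 0.69 with the macrophage marker Csf1r and 0.28 with the T cell marker Cd3e. Nectin2 ranked with Nucb2 (0.93), Soat1, which esterifies cholesterol (0.79), and Mmp8, the neutrophil collagenase (0.79). Lgals9 ranked with Tmem158 (0.86), Itpk1 (0.85) and Bphl (0.81). Against Pdcd1, which encodes PD-1, rho was 0.81 for Lag3, 0.81 for Havcr2 and 0.79 for Cd96, places 39, 13 and 6 in their lists, whereas it was 0.54 for Tigit and -0.66 for Lgals9.

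Transcript choice was described from the TPM of each annotated isoform. Nectin2 was divided evenly: transcript ENSMUST00000075447 held 49.8 ± 7.8% of its TPM in anti-PD-1 tumours and 50.2 ± 6.0% in IgG2a tumours (SD, n = 8 each), and ENSMUST00000108450 the rest. The difference of -0.44 points had an exact permutation p of 0.904. Lgals9 was carried almost wholly by ENSMUST00000108268, at 94.9 ± 1.5% in anti-PD-1 tumours and 95.8 ± 1.6% in IgG2a tumours, with the longer ENSMUST00000108269 at 4.81 ± 1.52% and 3.56 ± 1.88%. The longer form differs by 1 coding exon of 93 bases, or 31 codons, in the linker between the carbohydrate-binding domains, and this exon is shown because it is what tells the isoforms apart.
Lgals9 exon 5, chr11:78969714-78969806, minus strand: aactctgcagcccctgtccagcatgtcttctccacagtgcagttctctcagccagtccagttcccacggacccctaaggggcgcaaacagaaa
The longer Lgals9 transcript was listed above 0 in every tumour, from 0.603% in IgG2a replicate 7 to 7.27% in anti-PD-1 replicate 6. Its share was under the 10% set for testing a second isoform and was not tested. The Havcr2 transcript ENSMUST00000109229 was listed above 0 in only 2 tumours, anti-PD-1 replicates 1 and 6, at 20.6% and 68.5% of Havcr2 TPM, and the Cd226 transcript ENSMUST00000097496 in only 3, IgG2a replicates 2, 7 and 8.

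Vsir TPM was divided between coding and non-coding transcripts. The non-coding ones, chiefly the short ENSMUST00000164027 and the retained intron form ENSMUST00000169139, held 38.6% of its TPM but 4.75% of its reads. Their sum was 12.5 ± 9.4 TPM in anti-PD-1 tumours and 36.3 ± 20.9 TPM in IgG2a tumours (SD, n = 8 each). Protein-coding transcripts of Vsir summed to 33.5 ± 10.4 TPM in anti-PD-1 tumours and 44.1 ± 25.5 TPM in IgG2a tumours. On the log2(TPM + 1) scale the coding sum differed by -0.31 ± 0.27 (SE, exact permutation p = 0.295), against -0.71 for all transcripts (exact permutation p = 0.0410, before any adjustment). The leading coding form, ENSMUST00000020301, took 43.2 ± 15.2% of TPM in anti-PD-1 tumours and 32.9 ± 8.2% in IgG2a tumours, a difference of 10.3 ± 6.1 points (SE, exact permutation p = 0.113, adjusted p = 0.338 over 3 genes). Without anti-PD-1 replicate 6 the difference was 5.83 points, and without IgG2a replicate 3 it was 12.6 points. Without the 3 tumours that stand apart it was 8.87 points (exact permutation p = 0.0408, adjusted p = 0.122). As a share of estimated reads, the same form held 80.6 ± 4.0% in anti-PD-1 tumours and 80.2 ± 3.5% in IgG2a tumours, a difference of 0.37 points (exact permutation p = 0.851).

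**Figure D5:**
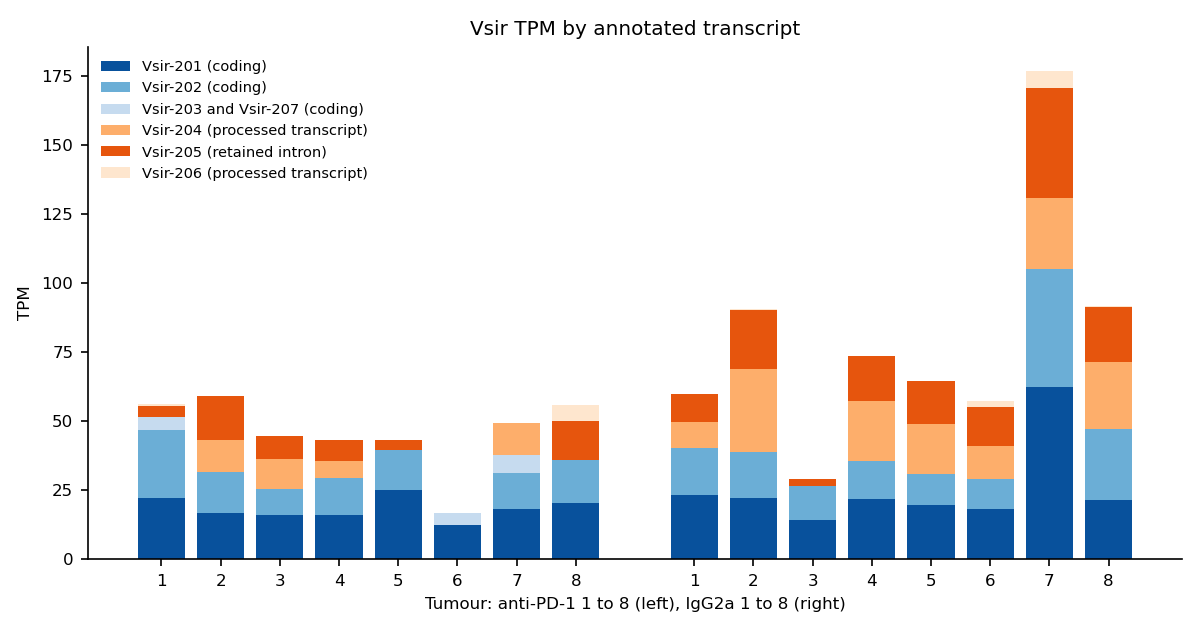
TPM of Vsir in each tumour, stacked by annotated transcript, with anti-PD-1 replicates at left, IgG2a replicates at right, coding forms in blue and non-coding forms in orange. The orange part averages 12.5 TPM in anti-PD-1 tumours and 36.3 TPM in IgG2a tumours, and IgG2a replicate 7 stands above the rest in both colours.

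Partners of these proteins outside the 9 genes were read from fixed lists. Of 5 LAG-3 partners 4 were tested, of 6 genes on the TIM-3 list 4, of 6 further nectin and TIGIT partners 5 and of 3 VISTA partners 2. The TIM-3 list also held the TIM-family genes Havcr1, Timd4 and Timd2, of which Timd4 was tested. By edgeR's adjusted p 0 were called in either direction, as were 0 of 7 MHC class II genes. The median log2 fold change was -0.06, -0.83, 0.07, -1.58 and 0.28 over these lists, beside -0.05 over all genes. Without the 3 tumours the TIM-3 median was -0.08 and the VISTA median turned to 0.29. At an unadjusted p of 0.05 by edgeR, 3 of the 15 genes tested on the partner lists had lower estimates under anti-PD-1. Of all 16154 genes, 1836 or 11.4% were at that p in either direction, and 1276 of these were lower. Ceacam1, a TIM-3 partner, had -1.53 ± 0.62 (log2 fold change, SE), Timd4, a TIM-family receptor for phosphatidylserine, -2.60 ± 0.90, and Vsig8, a described VISTA partner, -3.05 ± 1.08, each with an adjusted p of 0.434 by edgeR. All 3 were highest in IgG2a replicate 7, and without it the estimates were -0.21, -1.81 and 0.32. Without the 3 tumours that of Timd4 was -0.44.

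The abundant partners had estimates of small size, some of which moved with IgG2a replicate 7. The galectin-3 gene Lgals3, a LAG-3 ligand, averaged 781.7 TPM in anti-PD-1 tumours and 931.5 TPM in IgG2a tumours, with a log2 fold change of -0.02 ± 0.24 (SE), and 0.25 with IgG2a replicate 7 left out. Adam10 and Adam17, proteases that shed LAG-3, had -0.21 ± 0.14 and -0.10 ± 0.12, and the TIM-3 partners Hmgb1 and Bag6 had 0.22 ± 0.12 and -0.12 ± 0.13. Selplg, whose product PSGL-1 binds VISTA at acid pH, had -0.12 ± 0.31, and 0.18 with that tumour left out. MHC class II, the ligand of LAG-3, was plentiful, with Cd74 at 681.1 TPM in anti-PD-1 tumours and 627.3 TPM in IgG2a tumours. The estimates of H2-Aa, H2-Ab1, H2-Eb1, H2-DMa and H2-DMb1 ran from 0.07 to 0.36, and from 0.38 to 0.61 with IgG2a replicate 7 left out. Ciita, on the same list, went the other way, at -0.44 ± 0.43 (SE), and -0.32 with that tumour left out. None was past an unadjusted p of 0.05 by edgeR.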

How the data were processed

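Bulk RNA of 16 tumours was used, 8 under anti-PD-1 and 8 under IgG2a, each from its own animal number in the labels. Per the labels' protocols, RNA with an integrity number above 5 was enriched for poly(A) and made into non-directional libraries. Per the file headers, the authors deposited for each transcript an estimated count, not always whole, and a TPM. GRCm38, edgeR and limma are named in the submitters' processing notes. Which quantifier and annotation were used is not given in the sources used here. Transcripts were matched to GENCODE vM21 (114200 of 115088), and each gene's sum of estimated counts was rounded. The filter was filterByExpr (a minimum count of 10 and total of 15), and TMM factors scaled the libraries. The test was edgeR 4.0.16 (R 4.3.3), robust quasi-likelihood, anti-PD-1 over IgG2a, adjusted over all 16154 genes at a threshold of 0.05. It was tested on simulated data. CPM values are on TMM-scaled libraries, and log2 CPM has a prior count of 2.

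Correlations used 100000 permutations of tumours (scipy 1.17.1) and ratios the exact permutation test, whose smallest p is 1.554e-04. Isoform shares were tested where a second isoform held at least 10% on average. The named genes were the 9 members, the 3 protein-coding genes most like each in rank among those averaging 1 or more on the log2 CPM scale, and partners with an unadjusted p under 0.05 or a mean of at least 10 TPM. Members, lists, the 3 tumours left out and the tests were chosen with earlier results of these data known. Alternatives were RLE and upper quartile factors, limma-voom (limma 3.58.1) plain or weighted, DESeq2 1.42.0, other filters, limma-trend on TPM with pseudocounts of 1 and 0.1, a covariate for lower or higher animal numbers, and each tumour left out. Sequences are from RefSeq (GRCm38.p6) and the GENCODE transcripts.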

Additional observations from a re-analysis of the deposited data

Results flagged for a closer look

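Vsir in IgG2a replicate 7, at 317.5 CPM, lay far above the nearest of the other 7 IgG2a tumours, at 111.7 CPM. Nectin2 in the same tumour, at 51.6 CPM, was also far from the nearest, at 33.7 CPM. The gap was 0.876 of the group's range for Vsir and 0.590 for Nectin2, each above Dixon's 95% critical value for 8 samples. In all 18 groups of 8 were examined (9 genes in 2 groups), and chance alone flags about 1 in 20. The same tumour held the highest adipocyte, endothelial, erythroid and macrophage marker sums. The part of these cells in the levels of Vsir and Nectin2 was not tested.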

How the results depend on the processing

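The count of genes called was 0 under every setting run except DESeq2, which called 4. Correlated pairs numbered 1 of 36 on log2(TPM + 1), 7 without the 3 tumours that stand apart and 0 to 3 when 1 tumour was left out. Relations to marker scores passing numbered 4 on log2(TPM + 1), against 12. No member passed the adjusted threshold under any setting. The direction of estimates turned as follows, none of them past the threshold. Without the 3 tumours, log2 fold changes were 0.0877 for Lgals9, -0.0441 for Tigit and 0.0323 for Nectin2, log2 ratio differences were -0.0597 for Tigit/Cd226, -0.0328 for Cd96/Cd226, -0.17 for Havcr2/Csf1r and -0.19 for Pvr/Nectin2, and leading isoform shares differed by -2.49 points for Lag3 and 2.15 for Nectin2. With limma-voom and quality weights, log2 fold changes were -0.10 for Havcr2, 0.0636 for Lgals9 and 0.21 for Cd226. Pvr had 0.0185 with upper quartile factors and 0.0724 with limma-voom, and Nectin2 0.0169, 0.0329 and, without a filter, 0.0070. Pvr/Nectin2 differed by -0.0534 on log2(TPM + 1) and -0.0526 on log2(TPM + 0.1). Leaving out 1 tumour gave ranges of -0.0046 to 0.28 for Tigit, -0.0964 to 0.36 for Cd96, -0.13 to 0.0828 for Pvr, -0.0762 to 0.13 for Nectin2, -0.0978 to 0.70 for Cd96/Cd226, -0.25 to 0.18 for Pvr/Nectin2 and -1.83 to 1.92 points for the Nectin2 isoform share. The Vsir estimate ran from -0.44 to -0.02 when 1 tumour was left out, the last without IgG2a replicate 7, and was -0.31 on coding TPM. The cause was not tested. No paired analysis was possible because the labels give no numbers that the groups share. The replicate numbers used here follow the order of animal numbers within each group and do not pair animals.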
